A study of Mus musculus with 6 samples.

Results

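The 10 genes described here encode transcription factors of naive pluripotency: the Krüppel-like factors Klf2, Klf4 and Klf5, the nuclear receptors Esrrb, Nr5a2 and Nr0b1, and Tbx3, Prdm14, Tfcp2l1 and Gbx2. They were chosen by name, as every non-control probe whose gene name on the arrays was one of these symbols. This gave 11 probes for 9 genes, out of 39429 gene probes. Tfcp2l1 stands on the array design under its older symbol Tcfcp2l1, and its 2 probes were added through their RefSeq accession, which made 13 probes for all 10 genes. All 13 were well above background on all 6 arrays and was tested.

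The arrays hold RNA from Zscan5b knockout mouse embryonic stem (ES) cells (3 biological replicates) and from wild type ES cells (3 biological replicates), with 1 array each. Zscan5b is a member of the SCAN family of zinc finger genes. Cells of both genotypes were grown with 1000 IU/ml of leukemia inhibitory factor (LIF) on mouse embryonic fibroblasts inactivated with 10 µg/ml of mitomycin C, so feeder RNA can be part of each sample. How the allele was made, which exons it lacks and whether the knockout cultures were separate clones is not stated in the labels.

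Naive pluripotency is the state of the epiblast of the mouse blastocyst, which ES cells keep in culture. LIF, acting through the kinase Jak1 and the factor Stat3, WNT signalling, acting through release from the repressor Tcf7l1, and low ERK signalling each feed into the network of these factors. The factors activate one another and the core genes Pou5f1, Sox2 and Nanog, and several of them are switched off as cells pass to the primed state of the later epiblast. Several also act outside the pluripotent lineage, for example Klf4 in epithelia and fibroblasts and Nr5a2 in endoderm.

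Signals are given as log2 of the processed intensity minus the 75th percentile of the same array, so that 1 unit is a 2-fold difference between arrays. They compare arrays for 1 probe and do not rank genes against each other. The 75th percentile lay between 897 and 1028 on the knockout arrays and between 852 and 932 on the wild type arrays, and 25360 to 27098 against 26473 to 27737 gene probes were well above background. The Zscan5b probe read -4.47, -5.17 and -5.13 in the knockout replicates, against -3.66, -4.03 and -3.12 in the wild type replicates. It was lower on each knockout array but missed the threshold (log2 fold change -1.32 ± 0.29, SE, limma adjusted p = 0.107), and since the deleted part is not known here, this does not check the genotype. All 9 ES cell markers of a list that included Pou5f1, Sox2 and Nanog were well above background on all 6 arrays.

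The wild type arrays differed among themselves more than the knockout arrays did. For pairs of arrays, the probe-wise log2 differences had an SD of 0.33 to 0.40 among knockout pairs, 0.51 to 0.64 among wild type pairs and 0.49 to 0.70 in mixed pairs. Markers of feeder fibroblasts set wild type replicates 2 and 3 apart: 23 of 30 tested markers were higher on both of these arrays than on the other 4. This pattern was found in 10.8% of all genes tested. Between knockout and wild type, 1 marker was positive and 29 were negative, with a median log2 fold change of -0.82, and 0 were called by limma. At an unadjusted limma p under 0.05, 0 were higher and 7 lower, where 1966 and 2472 of all 20433 genes tested were. Over all genes tested, 46.4% were positive and the median was -0.03. The summed level of the list (linear signal relative to the 75th percentile) was 202 to 252 on the knockout arrays, against 217, 393 and 320 in wild type replicates 1, 2 and 3. Each genotype was hybridised on its own slide and scanned separately, so slide and genotype cannot be told apart in any comparison that follows.

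No naive factor passed the test between knockout and wild type. Over all tested probes, 0.124% were higher and 0.342% lower at a limma adjusted p under 0.05 (33 and 91 of 26647). None of the 13 probes was called by limma, and 1 of them (Klf4) had an unadjusted p under 0.05, where 21.9% of all tested probes did. The log2 fold changes were positive for 11 probes and negative for 2, with a median of 0.37. By representative probe, 8 of 10 genes were positive with a median of 0.34, where 46.4% of the 20433 genes tested were positive with a median of -0.03. At 1 of 13 probes the groups did not overlap, where 29.0% of all tested probes had no overlap (13.6% with the knockout higher and 15.4% with it lower).

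**Figure D1:**
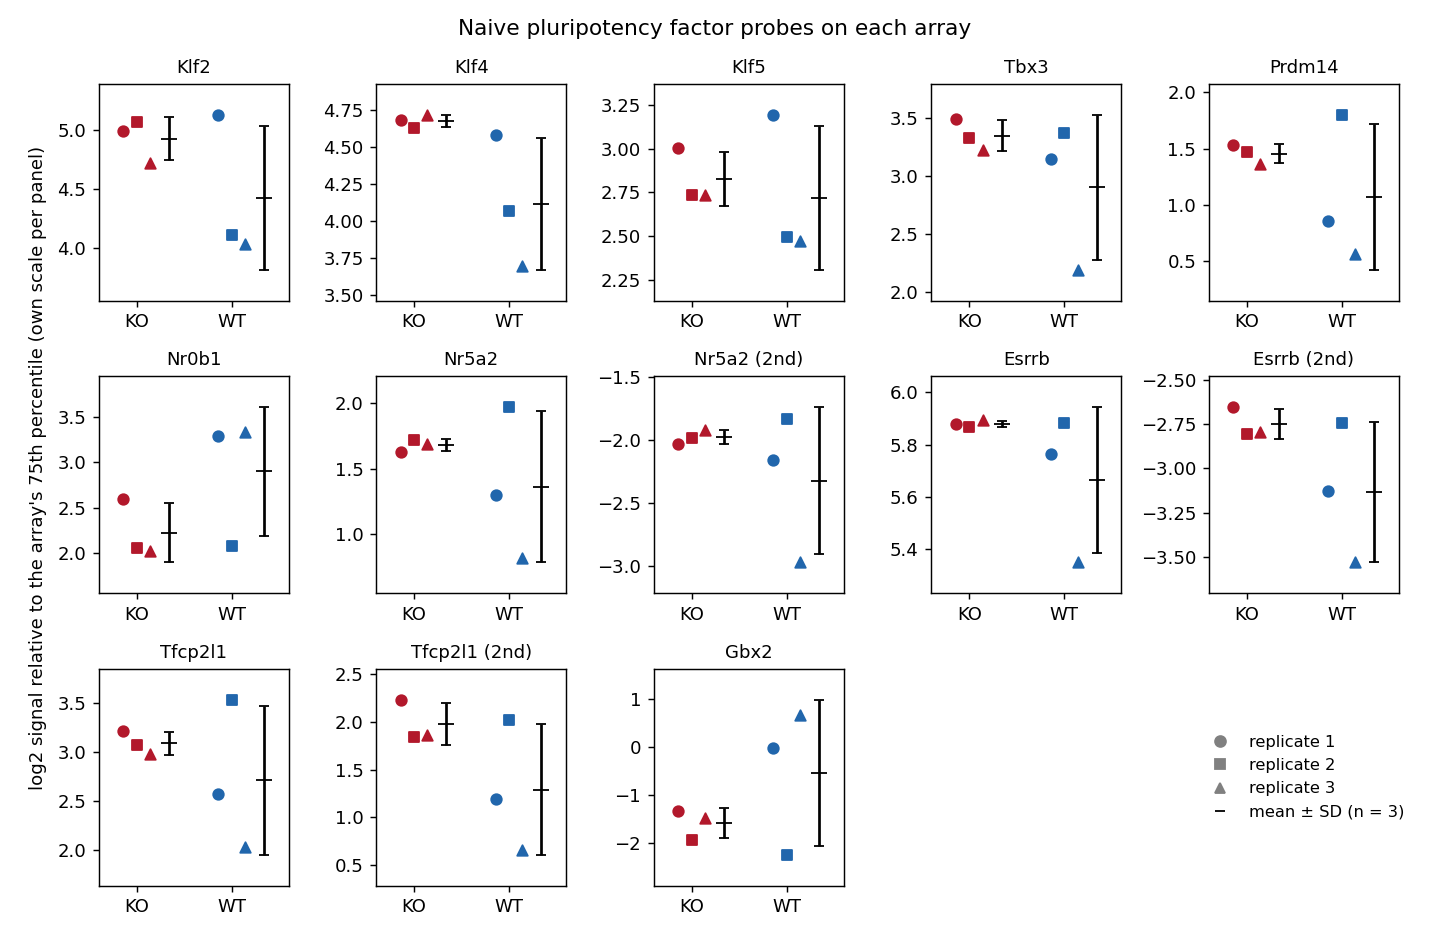
Log2 signal of each naive factor probe relative to the array's 75th percentile (vertical axis, own scale per panel) in knockout (KO, red) and wild type (WT, blue) arrays, with the replicate number as the symbol and the mean ± SD (n = 3) in black; "2nd" marks the dimmer probe of a gene. The 3 knockout arrays lie close together in most panels, and the wild type arrays spread more widely at all 13 probes.

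The naive factors varied more among the wild type cultures than among the knockout cultures. At all 13 probes the SD was larger among the wild type arrays (0.28 to 1.52) than among the knockout arrays (0.01 to 0.32). The medians were 0.12 in the knockout and 0.61 in wild type, against 0.13 and 0.22 over all tested probes, of which 72.8% had the larger SD in wild type. The 10 genes fell into 3 arrangements of the wild type arrays, which follow the families only in part.

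The Krüppel-like factors formed the first arrangement, in which wild type replicate 1 stood with the knockout arrays and wild type replicates 2 and 3 read lower. Klf2, Klf4 and Klf5 are zinc finger activators that bind GC-rich and CACCC sequences and can partly replace one another in ES cells, and Klf4 is a target of Stat3. Klf4 (probe at chr4:55540167-55540226, mm9, minus strand) read 4.68, 4.63 and 4.71 in knockout replicates 1 to 3, against 4.58, 4.07 and 3.70 in wild type replicates 1 to 3. Every knockout value exceeded every wild type value, by a small margin over replicate 1, and the log2 fold change was 0.56 ± 0.22 (SE, n = 3 per group, 95% interval 0.02 to 1.1), with a limma adjusted p of 0.22. Klf4 was the 1 probe without overlap between the groups.

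Klf2 (chr8:74845137-74845196, plus strand) read 4.99, 5.07 and 4.72 in the knockout, against 5.13, 4.12 and 4.04 in wild type. The highest array was wild type replicate 1 and the groups overlapped, with a log2 fold change of 0.50 ± 0.31 (interval -0.24 to 1.24, limma adjusted p = 0.365). Klf5 read 3.00, 2.73 and 2.74 in the knockout, against 3.19, 2.49 and 2.47 in wild type. Its fold change was 0.11 ± 0.22 (interval -0.43 to 0.64, limma adjusted p = 0.793), and it turned to -0.01 without wild type replicate 2 and -0.02 without wild type replicate 3. The Klf5 probe is the 1 member probe whose coordinates span more than its own 60 bases (chr14:99702656-99712388, mm9, 9733 bases), so it reads across a splice junction. It is printed here in lower case throughout because no position in it was singled out.
Klf5 probe: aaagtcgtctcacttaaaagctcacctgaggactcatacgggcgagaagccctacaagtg

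The pattern shared by the 3 Krüppel-like factors, with wild type replicates 2 and 3 both below the other 4 arrays, was found in 10% of all genes tested. The same 2 arrays carried the higher feeder marker levels. Col1a1, a fibrillar collagen chain, read 1.14, 1.97 and 1.45 in the knockout, against 1.73, 3.16 and 3.22 in wild type. Col1a2, the other chain of type I collagen, read 2.33, 2.86 and 2.60 in the knockout, against 2.26, 4.04 and 4.03 in wild type. Vim read 3.51, 3.82 and 3.42 in the knockout, against 4.10, 4.23 and 4.64 in wild type. For Vim, wild type replicate 1 also lay above every knockout array. Of 11 tested genes of the two-cell-like state, 8 shared the Krüppel-like pattern. Most of the 8 belong to the Zscan4 and Usp17 families, and Zscan4a and Zscan4c read nearly alike on every array. The 8 are therefore not independent observations. The part that feeder RNA has in the Klf values was not tested. In bulk RNA, fewer cells that express a gene and less of its RNA per cell cannot be told apart.

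The promoters of Klf2 and Klf4 are shown as examples of this arrangement, since both genes read lower in wild type replicates 2 and 3 than on the other 4 arrays. They are the 250 bases before the RefSeq transcription start on GRCm38.p6, at chr8:72318812-72319061 (plus strand) and chr4:55532476-55532725 (minus strand). Capitals mark matches to GGGCGG (the GC box of Sp and Krüppel-like factors) or CCACCC (the CACCC box), searched on both strands. Matches may overlap, as the first pair in Klf4 does.
Klf2 promoter: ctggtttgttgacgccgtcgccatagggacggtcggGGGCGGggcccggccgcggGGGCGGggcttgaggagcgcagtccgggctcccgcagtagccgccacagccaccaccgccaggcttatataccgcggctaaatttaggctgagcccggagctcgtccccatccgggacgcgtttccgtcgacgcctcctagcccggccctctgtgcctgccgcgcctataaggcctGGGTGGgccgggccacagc
Klf4 promoter: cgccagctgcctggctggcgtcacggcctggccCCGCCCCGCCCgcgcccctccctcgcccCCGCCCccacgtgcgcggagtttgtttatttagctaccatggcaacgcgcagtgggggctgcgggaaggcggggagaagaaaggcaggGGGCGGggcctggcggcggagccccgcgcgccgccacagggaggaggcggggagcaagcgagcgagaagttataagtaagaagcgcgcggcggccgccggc
Klf2 holds 2 GC boxes and 1 CACCC box, and Klf4 holds 4 GC boxes and no CACCC box. Of 32851 RefSeq promoters cut to the same 250 bases, 32.7% hold a GC box and 28.1% a CACCC box. Both sequences are GC-rich, at 71.2% for Klf2 and 74% for Klf4, above 92.2% and 95.1% of these promoters. Promoter sequence was found for 7 of the 10 genes.

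Esrrb, Nr5a2, Tfcp2l1, Tbx3 and Prdm14 formed the second arrangement, in which wild type replicates 1 and 3 read below the knockout arrays and replicate 2 read at or near their level or above it. All 5 genes had both replicates 1 and 3 below the other 4 arrays at their representative probes, a pattern found in 18% of all genes tested. Wild type replicate 3 was the lowest of all 6 arrays for each of the 5 and for the 3 Krüppel-like factors, 8 of 10 genes, where 25.1% of all genes tested had it lowest.

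Tfcp2l1, a CP2-family factor downstream of Stat3 and of WNT signalling, varied widely at both probes. Its brighter probe (chr1:120581646-120581705, mm9) read 3.21, 3.07 and 2.98 in the knockout, against 2.57, 3.54 and 2.04 in wild type. The second probe (chr1:120577637-120577696) read 2.23, 1.84 and 1.86, against 1.20, 2.01 and 0.66. Wild type replicate 2 was highest at the brighter probe and lay within the knockout range at the other, while replicates 1 and 3 lay below all knockout arrays at both. The log2 fold changes were 0.37 ± 0.36 (limma adjusted p = 0.556) and 0.69 ± 0.34 (limma adjusted p = 0.286).

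Esrrb, an orphan nuclear receptor that Tcf7l1 represses, varied little among the knockout arrays at its brighter probe. That probe (chr12:87862509-87862568, mm9) read 5.88, 5.87 and 5.89 in the knockout, against 5.76, 5.88 and 5.35 in wild type. The second probe, designed on a cDNA clone from retina (chr12:87856069-87856128), was far dimmer but had the same order of wild type arrays, at -2.65, -2.81 and -2.79 in the knockout, against -3.13, -2.74 and -3.53. Both probes placed wild type replicate 3 lowest and replicate 2 inside or next to the knockout range. The fold changes were 0.22 ± 0.16 (interval -0.16 to 0.59, limma adjusted p = 0.429) and 0.38 ± 0.21 (limma adjusted p = 0.314).

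Nr5a2, the receptor LRH-1, which binds the Pou5f1 promoter region, also had 2 probes on chromosome 1, with the same order of wild type arrays. The brighter (chr1:138740903-138740962, mm9, minus strand) read 1.63, 1.72 and 1.69 in the knockout, against 1.30, 1.97 and 0.82 in wild type, for a fold change of 0.31 ± 0.28 (limma adjusted p = 0.522). The second (chr1:138741712-138741771) read -2.03, -1.99 and -1.92, against -2.16, -1.84 and -2.97, for 0.34 ± 0.28 (limma adjusted p = 0.488). At both, the knockout arrays fell between wild type replicates 1 and 2.

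Prdm14, a PR domain protein that restrains FGF receptor signalling and DNA methyltransferase genes, read 1.54, 1.47 and 1.37 in the knockout, against 0.86, 1.80 and 0.56 in wild type (chr1:13103555-13103614, mm9, minus strand). The knockout arrays again lay between wild type replicate 2 above and replicates 1 and 3 below (0.38 ± 0.31, limma adjusted p = 0.486). Tbx3, a T-box factor that responds to LIF through phosphoinositide 3-kinase signalling, read 3.49, 3.33 and 3.22 in the knockout, against 3.14, 3.37 and 2.19 in wild type (chr5:120134511-120134570). Here replicate 1 lay just under the knockout arrays and replicate 3 alone was far below them (0.44 ± 0.31, limma adjusted p = 0.413). Without wild type replicate 3, the fold change of Tbx3 was 0.09.

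Promoters of Tfcp2l1 and Esrrb are printed as examples of this arrangement, again the 250 bases before the start on GRCm38.p6, at chr1:118627695-118627944 and chr12:86360867-86361116 (both plus strand, the first of 2 annotated starts for Esrrb). Capitals mark TATAAA (the TATA box) in Tfcp2l1, and in Esrrb TTCNNNGAA (the core of a STAT site) and CCACCC.
Tfcp2l1 promoter: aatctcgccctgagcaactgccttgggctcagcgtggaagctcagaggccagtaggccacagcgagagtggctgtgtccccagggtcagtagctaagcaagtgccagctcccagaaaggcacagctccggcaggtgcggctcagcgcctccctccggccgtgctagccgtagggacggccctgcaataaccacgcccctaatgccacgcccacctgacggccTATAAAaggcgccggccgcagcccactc
Esrrb promoter: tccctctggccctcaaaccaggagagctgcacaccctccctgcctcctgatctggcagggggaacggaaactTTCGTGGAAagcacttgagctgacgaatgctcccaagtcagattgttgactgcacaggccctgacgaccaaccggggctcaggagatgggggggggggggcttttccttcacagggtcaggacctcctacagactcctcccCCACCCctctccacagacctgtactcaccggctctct
The TATA box of Tfcp2l1 begins at position -28 from the start. A TATA box is found in 12.4% of the 32851 promoters and the STAT core in 7.02%. The sequence AAGGTCA, the form bound by Esrrb and Nr5a2, is found in 4.08% of promoters and is not in the windows of the 7 genes searched. These matches describe the letters and do not show binding.

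Nr0b1 and Gbx2 formed the third arrangement, the reverse of the second: wild type replicates 1 and 3 stood above the knockout arrays, and replicate 2 stood at or below their level. This pattern was found in 18.7% of all genes tested. Nr0b1 (Dax1) is an atypical nuclear receptor without the usual DNA-binding domain that restrains other factors of the network, and Gbx2 is a homeobox factor that Stat3 induces. Nr0b1 (chrX:83441169-83441228, mm9) read 2.60, 2.05 and 2.02 in the knockout, against 3.28, 2.08 and 3.33 in wild type. Replicate 2 sat inside the knockout range, below the other wild type arrays by more than the whole knockout range. The Nr0b1 probe is spotted 10 times per array, and the SD among these spots was 0.05 to 0.08 on each array, well under the SD between arrays of 0.32 in the knockout and 0.71 in wild type. The fold change was -0.67 ± 0.37 (interval -1.57 to 0.22, limma adjusted p = 0.323).

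Gbx2 varied more among the wild type cultures than any other of the 10 genes. It read -1.34, -1.95 and -1.48 in the knockout, against -0.03, -2.24 and 0.66 in wild type (chr1:91825013-91825072, mm9, minus strand). In processed intensity this was 233 to 407 in the knockout, against 836, 180 and 1475 in wild type replicates 1, 2 and 3. The highest and lowest wild type arrays differed 7.5-fold, and the lowest of all 6 arrays was a wild type one. The fold change was -1.05 ± 0.72 (interval -2.80 to 0.70, limma adjusted p = 0.409).

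The promoters of this pair, the 250 bases before the start on GRCm38.p6, lie at chrX:86191525-86191774 (plus strand) and chr1:89931177-89931426 (minus strand). Capitals mark CCACCC and TATAAA in Nr0b1 and GGGCGG in Gbx2, on either strand.
Nr0b1 promoter: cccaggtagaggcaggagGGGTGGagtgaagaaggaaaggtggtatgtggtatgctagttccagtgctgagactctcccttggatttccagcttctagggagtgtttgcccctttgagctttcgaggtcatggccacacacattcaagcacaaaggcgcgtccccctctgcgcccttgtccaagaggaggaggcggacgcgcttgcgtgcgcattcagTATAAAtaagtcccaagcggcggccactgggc
Gbx2 promoter: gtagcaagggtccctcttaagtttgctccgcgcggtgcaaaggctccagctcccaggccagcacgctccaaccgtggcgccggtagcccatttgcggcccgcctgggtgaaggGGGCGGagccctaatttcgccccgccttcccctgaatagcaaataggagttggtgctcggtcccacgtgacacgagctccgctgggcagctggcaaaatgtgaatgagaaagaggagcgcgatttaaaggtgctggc
Nr0b1 has a TATA box that begins at position -32 from the start and 1 CACCC box, and Gbx2 has 1 GC box and no TATA box in this window. No motif of the 6 searched was found in both.

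**Figure D2:**
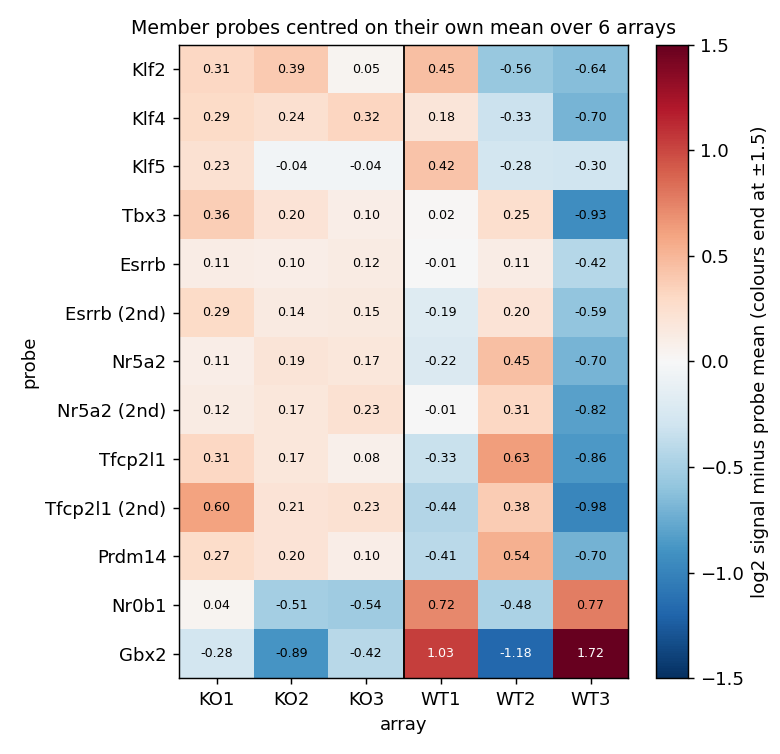
Log2 signal of each probe minus its own mean over the 6 arrays (colour, ending at ±1.5, and printed value), with knockout arrays left of the black line and wild type arrays right of it. In wild type replicate 3 the Klf, Tbx3, Esrrb, Nr5a2, Tfcp2l1 and Prdm14 probes are at their lowest, whereas Nr0b1 (0.77) and Gbx2 (1.72) are at their highest.

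The comparison between genotypes depended on single wild type arrays. Without wild type replicate 2, 4 of 13 probes (30.8%) were called by limma, against 9.60% of all tested probes in the same fit (5.29% higher and 4.31% lower). The 4 belong to genes grouped above by the place of wild type replicate 2, the array left out here. Their calls therefore restate that arrangement and are no separate support for it. Prdm14 rose by 0.75 ± 0.13 (SE, 3 knockout against 2 wild type arrays, limma adjusted p = 0.0404) and the second Tfcp2l1 probe by 1.05 ± 0.21 (limma adjusted p = 0.0464). Gbx2 fell by 1.91 ± 0.28 on the log2 scale (limma adjusted p = 0.0341) and Nr0b1 fell by 1.08 ± 0.20 (limma adjusted p = 0.0426). The brighter Tfcp2l1 probe (0.78, limma adjusted p = 0.059) and both Nr5a2 probes (0.61 and 0.59, limma adjusted p = 0.072 and 0.167) stayed short of the threshold.

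Leaving out another array gave a different picture. Without wild type replicate 3, none of the 13 probes was called, nor was any of 26646 probes tested (4122 of them had an unadjusted p under 0.05), and the median over the 13 was 0.06. Without wild type replicate 1, no member was called either, where 2.40% of all tested probes were (0.762% higher and 1.64% lower). Klf4 and Klf2 then had their largest fold changes, at 0.79 and 0.85. Leaving out any 1 knockout array left 11 probes positive and 2 negative, with none called. Nr0b1 and Gbx2 were negative in all 6 of these fits, and 10 of the other 11 probes were positive in all 6, the exception being Klf5.

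**Figure D3:**
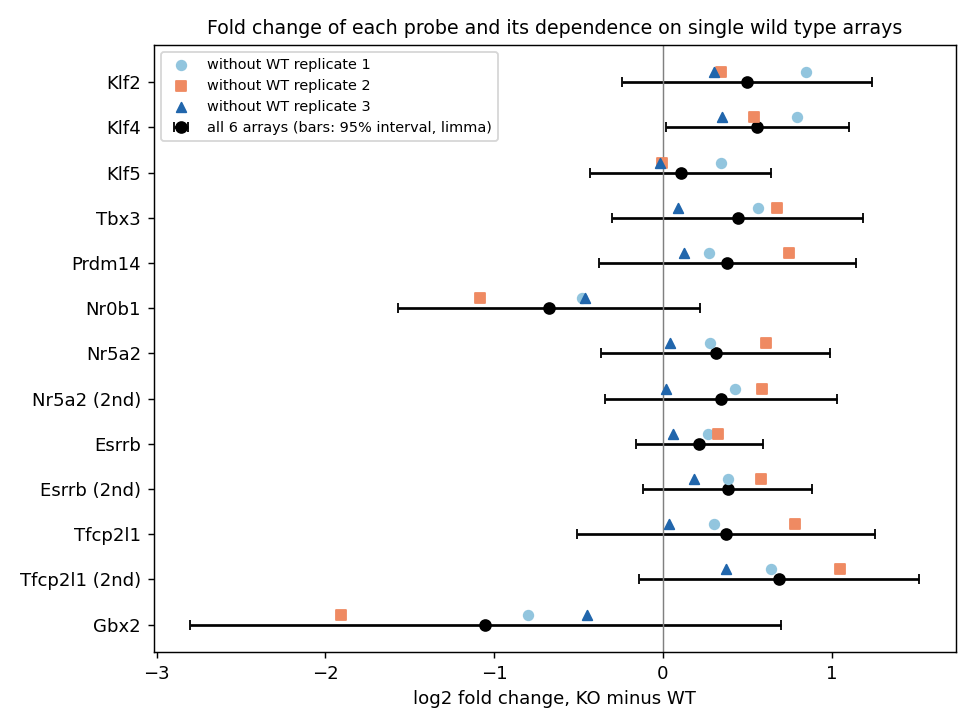
Log2 fold change (knockout minus wild type) of each probe with all 6 arrays (black, with 95% interval from limma) and without each wild type array in turn (coloured symbols). For the Esrrb, Nr5a2, Tfcp2l1, Prdm14, Tbx3, Nr0b1 and Gbx2 probes the value lies farther from 0 without wild type replicate 2 and closest to 0 without replicate 3, whereas Klf2 and Klf4 are farthest from 0 without replicate 1.

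Other genes of the naive network went in both directions, with more negative than positive. Of 20 such genes, 0 were called by limma (2 higher and 4 lower at an unadjusted p under 0.05), 7 were positive and 13 negative, and the median was -0.20. The median was negative in every alternative fit, at -0.11 without knockout replicate 3 and -0.10 under quantile normalization (9 positive, 11 negative). After a shift to the median of tested probes it was -0.25 (5 positive, 15 negative). Pou5f1, the core factor Oct4, read 2.17, 2.14 and 2.00 in the knockout, against 2.55, 2.52 and 2.66 in wild type, without overlap (-0.47 ± 0.10, limma adjusted p = 0.104). Ncoa3, a coactivator that works with Esrrb, was at -0.43 ± 0.10 and Spp1, a secreted phosphoprotein, at -1.02 ± 0.26 (limma adjusted p = 0.118 and 0.125). Pecam1, a surface marker of naive cells, was at 0.47 ± 0.09 (limma adjusted p = 0.0867). Nanog had 0.66 ± 0.22 and Sox2 0.09 ± 0.17 (limma adjusted p = 0.175 and 0.76). The Nanog probe was dim, at -2.50, -1.95 and -1.86 in the knockout, against -2.75, -2.51 and -3.02 in wild type.

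Among 29 genes of the LIF, WNT, ERK and BMP pathways, 0 were called by limma (5 higher and 1 lower at an unadjusted p under 0.05) and the median was 0.06, which was 0.003 when arrays were shifted to the median of the tested probes, 0.12 under quantile normalization and 0.14 without wild type replicate 1. Of all 20433 genes tested, 1966 were higher and 2472 lower at an unadjusted limma p under 0.05. The 4 pathway genes with the smallest p were positive. Socs3, the feedback inhibitor that Stat3 induces, read 4.71, 4.76 and 5.14 in the knockout, against 4.41, 4.22 and 3.89 in wild type, without overlap (0.70 ± 0.18, limma adjusted p = 0.134). Pim3, a kinase gene that also responds to LIF, was at 0.57 ± 0.16, and Map2k1, the ERK-activating kinase Mek1, at 0.34 ± 0.09 (limma adjusted p = 0.149 and 0.13). Axin2, a feedback target of WNT signalling, was at 1.05 ± 0.21 (limma adjusted p = 0.0935). The Axin2 probe was dim, at -4.51, -4.39 and -5.13 in the knockout, against -5.57, -5.78 and -5.84 in wild type. These levels lie below those of every member probe. Wild type replicate 3 was the lowest array for 14 of these 29 genes, where 25.1% of all genes tested had it lowest. The arrangement of the Krüppel-like factors was found in 7 of 29, against 10% of all genes tested.

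Genes that rise or act as cells leave the naive state often shared the arrangement of Nr0b1 and Gbx2. Of 26 such genes, 13 had wild type replicates 1 and 3 above the other 4 arrays (50%, where 18.7% of all genes tested did), a count made after the pattern was seen in the members. The mean log2 level of the list was 0.57, 0.32 and 0.32 in the knockout, against 0.88, 0.24 and 0.76 in wild type. None of the 26 was called by limma (1 higher and 4 lower at an unadjusted p under 0.05), and the median fold change was -0.17. That median was -0.34 without wild type replicate 2 (4 positive, 22 negative), -0.26 without knockout replicate 1 and -0.31 with array weights. It was smaller in size elsewhere, at -0.126 without wild type replicate 3, -0.134 without knockout replicate 3 and -0.144 under quantile normalization. Etv5, an ETS factor downstream of ERK, averaged 4.82 ± 0.16 in the knockout and 5.47 ± 0.28 in wild type (SD, n = 3 each), without overlap (-0.65 ± 0.17, limma adjusted p = 0.134). Sox4 was at -0.45 ± 0.13 and Grhl2, a factor of the primed epiblast, at -0.77 ± 0.19, and Nes, which encodes nestin of neural progenitors, was at 0.86 ± 0.22. Pou3f1, a factor of the primed state named here after its values were seen, read 0.61, 0.14 and 0.39 in the knockout, against 1.88, -0.25 and 1.94 in wild type. Its order of arrays was that of Gbx2, with wild type replicate 2 lowest and replicates 1 and 3 highest.

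**Figure D4:**
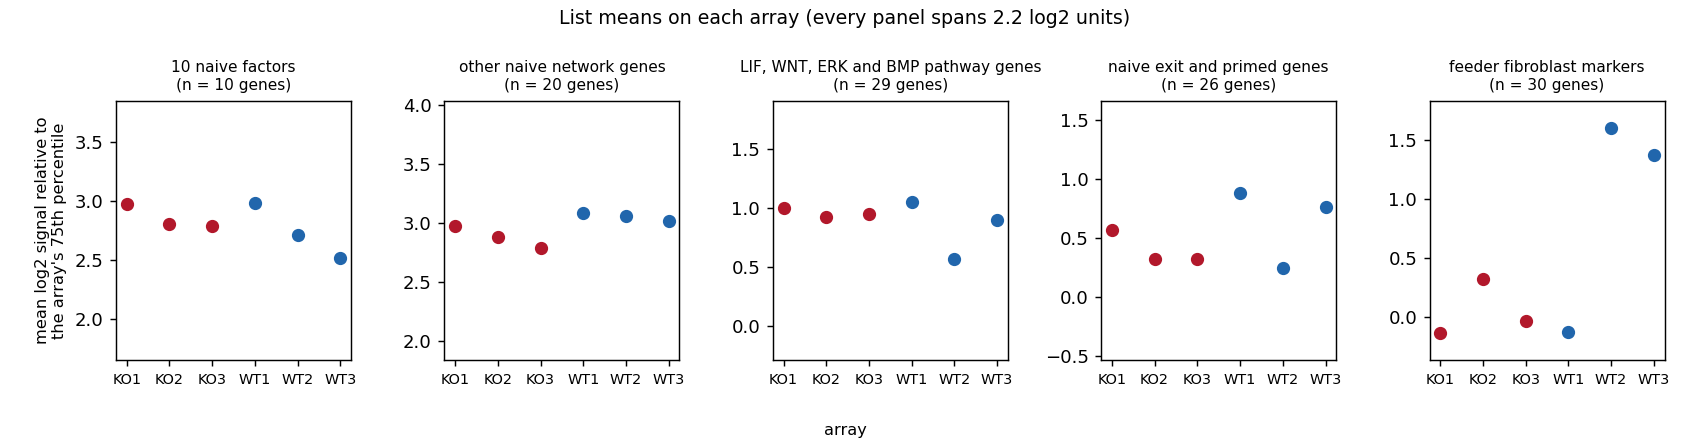
Mean log2 signal relative to the array's 75th percentile for 5 gene lists on each array (red knockout, blue wild type, every panel with the same span). Feeder markers are highest in wild type replicates 2 and 3 (1.60 and 1.37), whereas the naive exit and primed list is highest in wild type replicates 1 and 3 (0.88 and 0.76).

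Markers of other cell types did not all follow the feeder genes. Trophoblast markers (9 of 12 tested, with Cdx2, Elf5 and Hand1 under the detection limit) included 0 called by limma. At an unadjusted limma p under 0.05, 4 were higher and 0 lower, where 1966 and 2472 of all 20433 genes tested were. Of the 9, 8 were positive, with a median of 0.46. It was 0.77 without wild type replicate 2 and 0.41 after a shift to the median of tested probes. Without overlap, 5 of 9 were higher in the knockout, where 2552 of all 20433 genes tested were. Their summed level, to which Tfap2c (named after its values were seen) gave the most, was 27.6 to 32.8 in the knockout, against 16.8 to 29.5 in wild type. In 5 of 9, wild type replicates 1 and 3 were both below the other arrays, as for Esrrb and Tfcp2l1 and for 18% of all genes tested. Primitive endoderm markers (13 of 13 tested) did not move one way: 0 were called by limma, 4 were higher and 2 lower at an unadjusted p under 0.05, and 7 were positive and 6 negative. Their summed level was mostly that of Lama1, also named after its values were seen, at 7.49 to 8.75 in the knockout, against 6.62 to 11.7 in wild type. Their part in the values of the naive factors was not tested.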

How the data were processed

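RNA of 3 Zscan5b knockout and 3 wild type ES cell samples, grouped by sample title, was measured on Agilent arrays in 1 colour. The deposited scanner files hold spot intensity, background-subtracted and detrended within each array by the scanner software (Feature Extraction 10.7.3.1 per the file headers, but 10.3.1.1 in the submitters' processing notes). The authors' deposited series table holds log2 values of unstated column scaling, centred on each probe's median, and it served as an alternative. Against the scanner values, both centred per probe, it had r of 0.986 to 0.996 across probes, which are not independent, and column medians of -0.02, 0.02 and 0.03 in the knockout and 0.02, -0.01 and -0.07 in wild type.

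Control and outlier spots were left out, log2 processed signals averaged per probe and each array's 75th percentile subtracted. Probes well above background on at least 3 of 6 arrays were tested (26647, 67.6%) with lmFit and eBayes in limma 3.58.1 (R 4.3.3, two-sided), KO minus WT, with Benjamini-Hochberg adjustment over all of them and a threshold of 0.05. The number of arrays limits the precision. No source says whether replicates were separate derivations. The p-values therefore weigh the difference between groups only against the spread between these cultures, pooled over both groups. The test was run on simulated data with the same SD in both groups. That check does not cover the wider spread among the wild type arrays.

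A gene is represented by its tested probe with the highest mean. All member probes are given, and from each of the 3 lists around them the 4 genes with the smallest p, plus Zscan5b and a few ES cell and feeder markers. Members and lists were chosen with earlier results of these data known. Gene symbols were updated by accession or synonym through RefSeq on GRCm38.p6, used for names and promoters. Probe coordinates are mm9, as deposited.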

Additional observations from a re-analysis of the deposited data

How the results depend on the processing

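The signs of all 13 naive factor probes were the same with all 6 arrays under the other scalings, background correction, filters, array weights, variance prior, the authors' table and the replicate block, with none called. Of 205 probe values under the alternatives, 199 kept both their direction and their side of the threshold. Those that did not came from leaving out wild type arrays. Klf5 ranged from -0.0189 to 0.34 over the fits without 1 array, negative without wild type replicate 2 or 3, and Prdm14, Nr0b1, Gbx2 and the second Tfcp2l1 probe passed the threshold without wild type replicate 2. Called members ranged from 0 to 2 higher and 0 to 2 lower over the fits without 1 array. Over all tested probes, the 33 higher and 91 lower calls ranged from 0 to 1409 and from 0 to 1148 in those fits. They were 434 and 406 with array weights, 50 and 131 under quantile normalization and 54 and 177 after a shift to the median of tested probes. There were 0 and 0 under normexp with an offset of 50 (5785 probes at an unadjusted p under 0.05), without a detection filter (6499), with detection on all 6 arrays (5451), with a trended and robust prior (6198) and with the replicate number as a block (5152). The cause was not tested. Same-numbered arrays had correlations of their deviations from the group means of 0.16, 0.23 and -0.14. Differently numbered arrays had -0.32 to 0.21. Deviations within a group are tied to each other, so these values cannot decide whether the numbers pair the samples. With array weights, Gbx2 was at -1.68 (limma adjusted p = 0.0845), Nr0b1 at -0.98 (0.0767) and the second Tfcp2l1 probe at 0.82 (0.0908), and wild type replicate 2 had the lowest weight, 0.301. Averaging the probes of a gene turned no sign. The dimmest member probes were the second Esrrb probe, at an intensity of 129 to 164 in the knockout and 80.7 to 128 in wild type, and the second Nr5a2 probe, at 227 to 252 and 119 to 238. Under normexp their fold changes were 0.22 and 0.23, against 0.38 and 0.34. Gbx2 was also dim, down to 180 in wild type replicate 2.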
